A study of Mus musculus with 10 samples.

Results

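The 10 genes described here, Atf3, Atf4, Atf5, Ddit3, Trib3, Ppp1r15a, Asns, Chac1, Sesn2 and Psat1, belong to the integrated stress response. They were chosen by name, with earlier results of these data known. Every probe whose platform gene symbol is one of the 10 was taken, which gave 18 of 45281 probes and 10 of 19057 genes. Of them 5 had 1 probe, 2 had 2 and 3 had 3. All 10 passed the filter on dim probes in both cell lines.

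RNA was hybridised to mouse Illumina bead arrays from 2 cell lines, each grown by itself (monolayer) or with the other (bilayer). 3T3-L1 adipocytes are fat cells derived from an embryonic fibroblast line. They had been differentiated with 0.5 mM IBMX, 1 µM dexamethasone and 10 µg/mL insulin and were used at day 8. RAW 264.7 macrophages are a mouse macrophage line. In the bilayer, macrophages that had settled for 18 h on a membrane with 0.4 µm pores were set above the adipocytes in 25 mL of fresh medium for 24 h. Both lines grew in DMEM with 10% fetal bovine serum, and each sample pooled 5 dishes. There were 3 monolayer and 3 bilayer samples of adipocytes, and 2 and 2 of macrophages. The volume and age of the medium in monolayer dishes, and whether they held an insert, are not given in the sources used here, so a bilayer difference cannot be told apart from a difference in these. Nothing in the labels says that the pools came from separate cultures, so the p-values speak of the spread among these pools alone, and that spread may be technical. The number of arrays limits the precision.

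The integrated stress response begins with kinases that phosphorylate the translation factor eIF2 when amino acids run short, the endoplasmic reticulum is overloaded, haem is lacking or double-stranded RNA is present. Most translation slows, while the mRNA of the transcription factor ATF4 is translated more. ATF4 then switches on other transcription factors (ATF3, ATF5 and CHOP, the product of Ddit3), enzymes that make amino acids (ASNS, PSAT1) and feedback regulators. Among the latter are TRIB3, a pseudokinase that restrains ATF4 and AKT, and the product of Ppp1r15a (GADD34), which directs a phosphatase to eIF2. Because ATF4 is controlled largely by translation, its mRNA level is a partial measure of its activity, and no protein was measured on these arrays.

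ATF4 binds DNA together with C/EBP proteins at a composite element, and this element is shown because ATF4 target genes often carry it near the start site. RefSeq promoter windows of build GRCm38.p6, from 250 bases before to 50 after the start site, were found for all 10 genes, 12 windows in all. The letters TGATGNAA, searched on both strands, were in 4 windows, those of Atf3, Chac1, Asns and Trib3, and in 3.97% of all 32851 windows. The endoplasmic reticulum stress element, also searched on both strands, was in 0 of the 12 windows and in 0.119% of all. The cAMP response element TGACGTCA reads the same on both strands and was in the window of Ppp1r15a and in 1.79% of all windows. It was added after the first windows had been seen. In the lines below the matched letters are in capitals, and each sequence reads 5′ to 3′ on the strand of its gene. No match overlapped another motif. A match is a run of letters and does not show binding.
Atf3: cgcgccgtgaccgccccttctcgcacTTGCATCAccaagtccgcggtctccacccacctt
Chac1: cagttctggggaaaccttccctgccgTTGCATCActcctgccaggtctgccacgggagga
Asns: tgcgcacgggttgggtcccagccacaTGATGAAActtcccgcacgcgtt
Trib3: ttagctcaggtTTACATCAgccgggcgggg
Ppp1r15a: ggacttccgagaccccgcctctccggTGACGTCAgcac
The Atf3 stretch is chr1:191183410-191183469 on the minus strand, with the element from position -110 to -103 relative to the start site. That of Chac1 is chr2:119351023-119351082 on the plus strand, with the element at -193 to -186. That of Asns is chr6:7693210-7693258 on the minus strand, with the element at -23 to -16. The Trib3 stretch, chr2:152344028-152344057 on the minus strand, lies within the transcript, at 15 to 22 after the start site. That of Ppp1r15a is chr7:45526269-45526306 on the minus strand, with the match at -12 to -5. In Atf3, Chac1 and Trib3 the element reads in the opposite orientation to the gene.

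Values are the deposited background-subtracted and normalized intensities of the brightest probe of each gene, in arbitrary linear units. Probes differ in brightness for the same amount of RNA, so levels are compared between groups and not between genes. Differences are given on the scale log2(intensity + 16), and folds are those of intensity + 16. Both understate the change of dim genes. The test was limma across all genes with Benjamini-Hochberg adjustment, called at adjusted p under 0.05, and intervals are 95%. In bulk samples, a change in the number of cells that express a gene and a change in RNA per cell cannot be told apart.

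Marker genes were checked against the labels. All 10 adipocyte markers were above the noise bound (10.9 units) on every adipocyte array, and 8 of 9 macrophage markers were on every macrophage array. The ninth, Fcer1g, was above it on no monolayer macrophage array. In adipocytes 7 of 9 macrophage markers were above the bound on no monolayer array, and 7 on no bilayer array. Their summed intensity was 9.49 to 40.2 in monolayer and 15.05 to 38.0 in bilayer adipocytes, against 58507 to 59686 in monolayer macrophages. The 10 adipocyte markers summed to 92781 to 101325 in monolayer and 90194 to 95540 in bilayer adipocytes, and 0 of 10 passed the test. By limma 3 of the 10 (Fabp4, Cidec and Cebpa, named after their values were seen) had an unadjusted p under 0.05, where 24.7% of all genes tested did, and all 3 were lower in bilayer. The 7 fibroblast and preadipocyte markers summed to 22620 to 24260 in monolayer and 20662 to 21607 in bilayer adipocytes. Of the 7, the contractile actin gene Acta2 fell by 0.61 (adjusted p = 0.000288), and its part in the results below was not tested.

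Among the 10 genes in adipocytes, 5 genes of transcription factors and feedback regulators and Chac1 rose in the bilayer, while Asns and Psat1 were not shown to differ. Of the 10 genes 6 rose, 0 fell and 4 did not pass, where 10.8% of the 11037 genes tested in adipocytes passed, 5.63% rising and 5.17% falling. Because the 10 were chosen with earlier results of these data known, these shares are a description and not a test of the set. The 6 were the transcription factor genes Atf4, Atf3 and Ddit3, the feedback regulators Trib3 and Ppp1r15a, and the glutathione-degrading enzyme gene Chac1. The median log2 difference of the 10 was 0.57, against -0.01 over all genes tested. For those 6 no bilayer array overlapped a monolayer array, which was so for 13.9% of all genes tested in the upward direction.

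**Figure D1:**
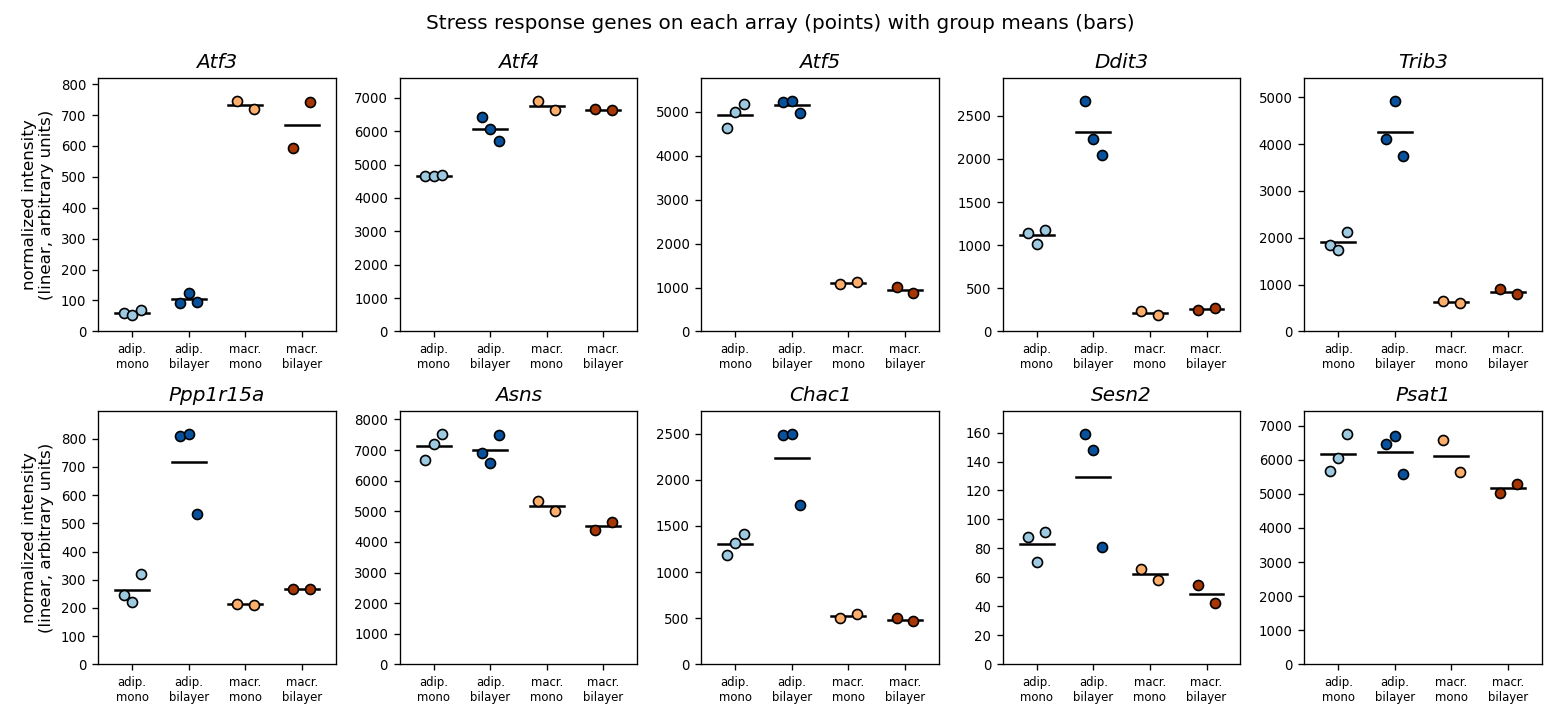
Normalized intensity of each gene's brightest probe (vertical axis from 0, linear, arbitrary units) on each of the 10 arrays, in 4 groups of 3, 3, 2 and 2. Points are arrays and bars are group means. Bilayer adipocytes stand above monolayer adipocytes without overlap for Atf3, Atf4, Ddit3, Trib3, Ppp1r15a and Chac1.

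Atf4, the central transcription factor, had intensities of 4649, 4657 and 4677 on the monolayer adipocyte arrays and 6423, 6057 and 5703 on the bilayer arrays. The monolayer arrays lay within a narrow band and all 3 bilayer arrays lay above it. The difference was small, 0.38 on the log2 scale or 1.30-fold (SE 0.06, adjusted p = 0.000296). The second, dimmer Atf4 probe differed by 0.27 and did not pass when every probe was tested as its own feature (adjusted p = 0.149).

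Ddit3 encodes CHOP, a transcription factor linked to cell death under prolonged stress. It was at 1146, 1019 and 1172 on the monolayer arrays and at 2667, 2227 and 2041 on the bilayer arrays. The lowest bilayer array was above the highest monolayer array. The rise was 2.05-fold (interval 0.83 to 1.25 in log2, adjusted p = 1.75e-06), and the other Ddit3 probe rose by 1.22 in log2 (adjusted p = 4.71e-07 over all probes).

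Atf3 encodes a stress-induced repressor and activator of the same family. Its adipocyte intensities were dim, at 58.1, 53.6 and 69.1 in monolayer and 91.3, 125 and 93.7 in bilayer. All 3 bilayer arrays lay above the monolayer arrays. The rise was 0.64 in log2 (SE 0.13, adjusted p = 0.00348). It was lost when no filter on dim probes was used (adjusted p = 0.0572).

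Atf5, another transcription factor of the response, held 4629, 4988 and 5175 in monolayer and 5223, 5240 and 4985 in bilayer. These groups overlapped. The difference was 0.06, with an interval from -0.08 to 0.21 (adjusted p = 0.624), so a rise as large as that of Atf4's point estimate lay outside the interval.

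Trib3 was at 1841, 1738 and 2122 on the monolayer adipocyte arrays and at 4109, 4913 and 3754 on the bilayer arrays. Every bilayer array was above every monolayer array by a wide margin. The rise was 1.15 in log2 (interval 0.96 to 1.35, adjusted p = 2.68e-07). The other Trib3 probes rose by 1.39 and 1.19, so the 3 probes gave the same direction and similar sizes.

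Ppp1r15a had the largest difference of the 10 genes. Its intensities were 245, 222 and 320 in monolayer and 808, 815 and 533 in bilayer. Bilayer replicate 3 was the lowest of its group and still above all monolayer arrays. The rise was 2.62-fold (interval 1.09 to 1.69 in log2, adjusted p = 4.21e-06).

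**Figure D2:**
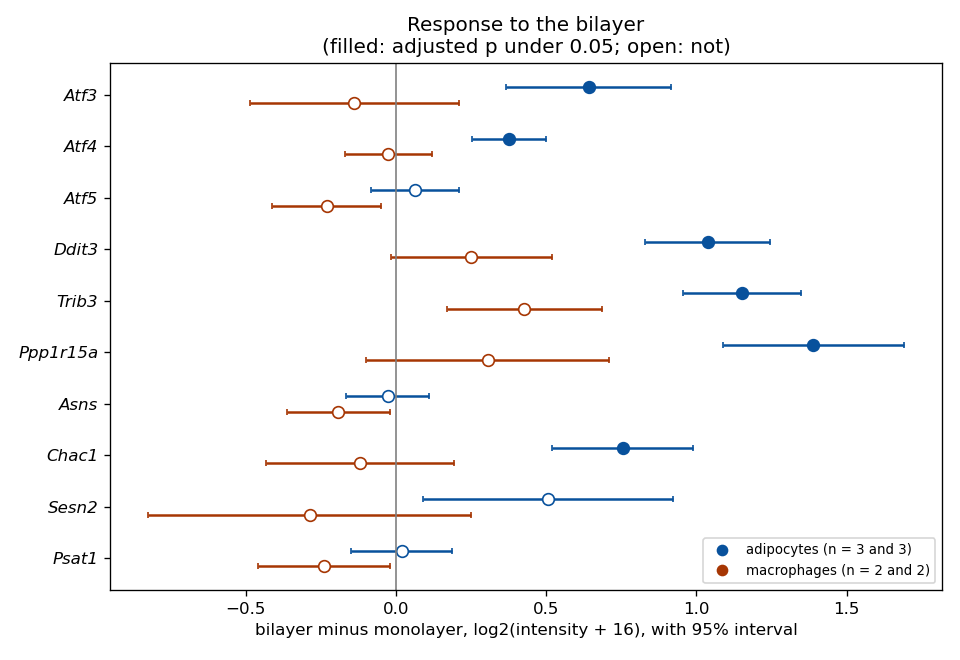
Bilayer minus monolayer difference of each gene in log2(intensity + 16) (horizontal axis), in adipocytes (blue, n = 3 and 3) and macrophages (brown, n = 2 and 2), with 95% intervals. Filled points passed at adjusted p under 0.05: 6 in adipocytes, from 0.38 for Atf4 to 1.39 for Ppp1r15a, and 0 in macrophages.

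Chac1 encodes a cytosolic enzyme that breaks down glutathione and is a known target of ATF4 and CHOP. It was at 1188, 1313 and 1410 in monolayer adipocytes and 2484, 2492 and 1732 in bilayer adipocytes. The groups did not overlap, and bilayer replicate 3 was again the lowest of its group. The rise was 0.75 in log2 or 1.69-fold (SE 0.11, adjusted p = 0.000184).

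The amino acid enzymes gave other values. Asns, asparagine synthetase, was at 6662, 7209 and 7511 in monolayer and 6913, 6588 and 7491 in bilayer adipocytes. The groups overlapped almost wholly, and the difference was -0.03 with an interval from -0.16 to 0.11 (adjusted p = 0.848). The other Asns probes differed by 0.00 and -0.26 (adjusted p = 0.994 and 0.147 over all probes). Psat1, an aminotransferase of serine synthesis, was at 5666, 6056 and 6742 in monolayer and 6460, 6694 and 5568 in bilayer. These groups overlapped too, with a difference of 0.02 and an interval from -0.15 to 0.19 (adjusted p = 0.919). For both enzymes the interval reached no further up than 0.19, below the point estimates of the 6 genes that rose.

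Sesn2, a sestrin that restrains the growth kinase complex mTORC1 when leucine is scarce, was dim. It was at 88.0, 70.7 and 91.3 in monolayer and 159, 148 and 81.0 in bilayer adipocytes. Bilayer replicates 1 and 2 were above all monolayer arrays, while replicate 3 lay among them. The difference of 0.51 did not pass (SE 0.20, adjusted p = 0.114). Without bilayer replicate 3 it was 0.77 and passed (adjusted p = 0.00934). With the mean of the gene's probes it was 0.77 and passed too (adjusted p = 0.0167). That mean takes in the second Sesn2 probe, which entered the test through its bilayer arrays alone, so this pass is no separate support. The second Sesn2 probe, above the noise bound on all 3 bilayer and 0 of 3 monolayer adipocyte arrays, read 26.3, 11.7 and 25.2 in bilayer (1.03 in log2, adjusted p = 0.0545 over all probes). The third probe was above the bound on 0 of the 6 adipocyte arrays.

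**Figure D3:**
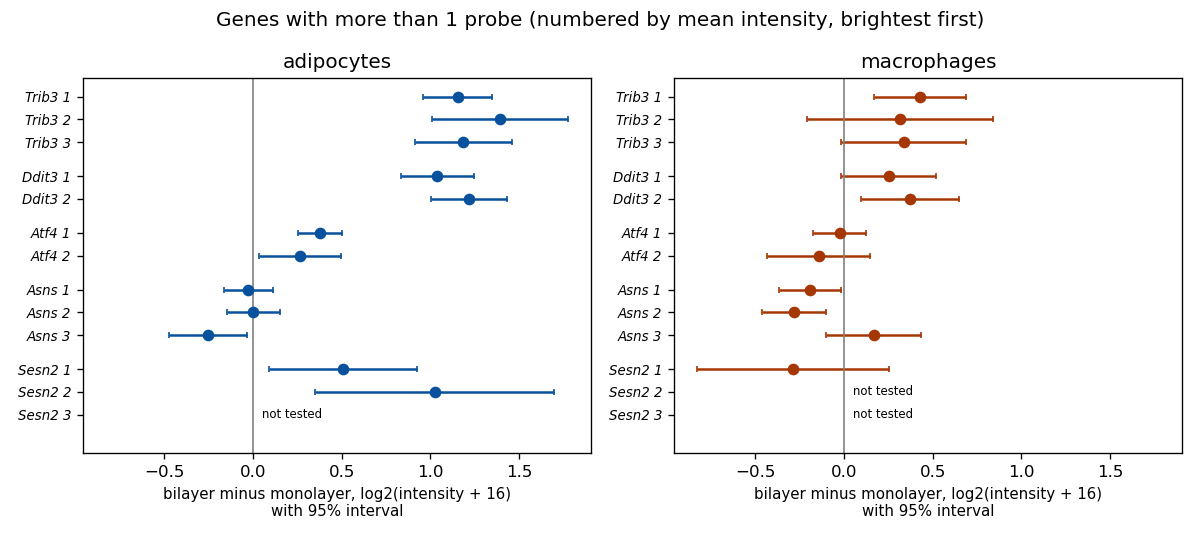
Bilayer minus monolayer difference for every probe of the 5 genes with more than 1 probe, in log2(intensity + 16) with 95% intervals, in adipocytes (left) and macrophages (right). Probes are numbered from the brightest. The 3 Trib3 probes and the 2 Ddit3 probes lie between 1.04 and 1.39 in adipocytes, and the 3 Asns probes between -0.26 and 0.00. Probes marked as not tested were too dim.

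By their brightest probes, the 10 genes often ranked alike over replicate arrays, which was not tested. Adipocyte monolayer replicate 3 was the highest of its group for 10 of 10 genes, where it was the highest for 35.1% of all genes tested. The dimmer Ddit3, Trib3 and Asns probes were also highest there, but the second Atf4 probe was lowest (264, 224 and 220). Bilayer replicate 3 was the lowest of its group for 8 of 10, the exceptions being Atf3 and Asns, where it was the lowest for 29.9% of all genes. Leaving out bilayer replicate 3 moved the Ppp1r15a difference to 1.59 and that of Chac1 to 0.93, their highest values over arrays left out in turn. None of the 6 calls was lost when any 1 array was left out, with adjusted p at most 0.0253, reached by Atf3.

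In macrophages none of the 10 genes passed the test. By limma 0 of 10 passed, where 0.668% of the 10326 genes tested did, and 4 of 10 reached an unadjusted p under 0.05, as did 1124 genes in all. These 4 were Trib3 with a positive difference and Atf5, Asns and Psat1 with negative ones. Over the 10 genes 3 differences were positive and 7 negative, with a median of -0.13 against 0.00 over all genes. Groups did not overlap for 3 genes that were higher in bilayer (22.4% of all genes) and 5 that were lower (21.2% of all genes), with only 2 arrays in each group.

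Trib3 was at 650 and 600 in monolayer macrophages and at 898 and 796 in bilayer macrophages. Both bilayer arrays were above both monolayer arrays. The difference was 0.43 (interval 0.17 to 0.69, adjusted p = 0.177), and in a fit with only the macrophage arrays it passed (adjusted p = 0.0174). Ddit3 was at 235 and 194 in monolayer and 246 and 269 in bilayer, a difference of 0.25 (interval -0.02 to 0.52, adjusted p = 0.502). Its groups did not overlap but lay close together. The other Ddit3 probe was at 136 and 144 in monolayer and 189 and 182 in bilayer. It differed by 0.37 (interval 0.09 to 0.65) and did not pass over all probes (adjusted p = 0.311). Ppp1r15a was at 215 and 211 in monolayer and 268 and 266 in bilayer, a difference of 0.31 (interval -0.10 to 0.71, adjusted p = 0.623). The 4 macrophage values of Ppp1r15a fall in 2 tight pairs, while the spread in its interval is pooled with the adipocyte arrays, where it was larger.

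The enzymes and Atf5 lay the other way in macrophages. Asns was at 5339 and 5004 in monolayer and 4393 and 4657 in bilayer, a difference of -0.19 (adjusted p = 0.397). Its dimmest probe pointed up, by 0.17, and the remaining probe down, by 0.28, and neither passed. Psat1 was at 6567 and 5655 in monolayer and 5029 and 5291 in bilayer, a difference of -0.24 (adjusted p = 0.416). Atf5 was at 1073 and 1134 in monolayer and 1017 and 865 in bilayer, a difference of -0.23 (adjusted p = 0.319). For each of these 3 genes both bilayer arrays were below both monolayer arrays.

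The remaining genes differed little in macrophages relative to their spread. Atf4 was at 6894 and 6633 in monolayer and 6666 and 6622 in bilayer, a difference of -0.03 (interval -0.17 to 0.12). Atf3 was at 744 and 721 in monolayer and 595 and 741 in bilayer, a difference of -0.14 (interval -0.49 to 0.21), with the groups overlapping. Chac1 was at 504 and 551 in monolayer and 504 and 465 in bilayer, and Sesn2 at 65.8 and 58.5 and then 54.5 and 42.0. For Sesn2 both bilayer arrays were below both monolayer arrays, while for Chac1 the nearest arrays of the groups were equal to 3 digits. Their differences were -0.12 (interval -0.43 to 0.19) and -0.29 (interval -0.83 to 0.25), and neither passed.

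The responses of the 2 lines were then compared directly, as the adipocyte difference minus the macrophage difference. All 10 values were positive, from 0.17 for Asns to 1.08 for Ppp1r15a, with a median of 0.75 against -0.02 over all genes. Of the 10 genes 5 passed, where 2.56% of 12324 genes did, 1.51% with a higher and 1.05% with a lower response in adipocytes. They were Ppp1r15a (1.08, SE 0.24, adjusted p = 0.0289), Chac1 (0.87, SE 0.19, adjusted p = 0.0247) and Ddit3 (0.79, SE 0.16, adjusted p = 0.019). Trib3 (0.73, SE 0.15, adjusted p = 0.0247) and Atf4 (0.40, SE 0.09, adjusted p = 0.0265) also passed. When every probe was tested as its own feature, the other Trib3 probes differed by 1.08 and 0.85 and did not pass (adjusted p = 0.107 and 0.0587). The second Atf4 probe differed by 0.41 and did not pass (adjusted p = 0.286), while the second Ddit3 probe passed (0.85, adjusted p = 0.0197). Atf3 differed by 0.78 (adjusted p = 0.0631) and Sesn2 by 0.79 (adjusted p = 0.226), and neither passed. These 5 calls were close to the threshold. The number that passed was 0 without adipocyte monolayer replicate 2, macrophage monolayer replicate 1 or either macrophage bilayer array. It was 1 without adipocyte monolayer replicate 1 or macrophage monolayer replicate 2, 3 without adipocyte bilayer replicate 2, and 0 with no variance trend or no filter on dim probes. The sizes moved less, between 0.36 and 1.28 over those 5 genes when each array was left out.

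Grown alone, the lines already differed in 7 of the 10 genes, 5 higher in adipocytes and 2 lower, where 65.8% of all 12324 genes differed, 33.0% higher and 32.8% lower. Arrays did not overlap for 7 genes higher in adipocytes (37.6% of all genes) and 2 lower (37.7% of all genes). Adipocytes were higher in Ddit3 (4.91-fold, adjusted p = 9.18e-11), Atf5 (4.41-fold, adjusted p = 1.96e-12) and Trib3 (2.98-fold, adjusted p = 4.78e-09). They were also higher in Chac1 (2.42-fold, adjusted p = 4.79e-07) and Asns (1.38-fold, adjusted p = 4.35e-05). Atf3 was 9.85-fold lower in adipocytes than in macrophages (-3.30 in log2, adjusted p = 2.19e-11), and Atf4 was 1.45-fold lower (-0.54, adjusted p = 1.64e-06). Ppp1r15a (0.27), Sesn2 (0.34) and Psat1 (0.01) did not pass.

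**Figure D4:**
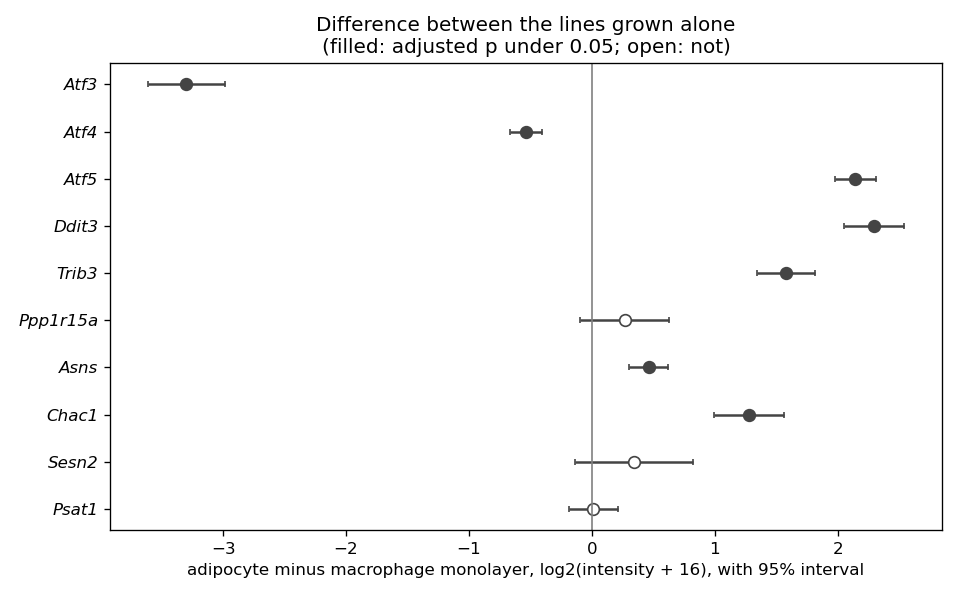
Monolayer adipocytes (n = 3) minus monolayer macrophages (n = 2) for each gene in log2(intensity + 16), with 95% intervals. Filled points passed at adjusted p under 0.05. Atf3 lies at -3.30 and Ddit3 at 2.30, while Psat1 lies at 0.01.

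The order of the 4 groups separated the genes. For Ddit3 and Trib3 it ran from bilayer adipocytes through monolayer adipocytes and bilayer macrophages to monolayer macrophages, with no overlap between neighbours. The highest group mean of Ddit3 was 10.8 times its lowest and that of Trib3 6.81 times. Chac1 also had its highest mean in bilayer adipocytes, 4.62 times the lowest, which was in bilayer macrophages. Both Atf3 and Atf4 had their highest means in monolayer macrophages and their lowest in monolayer adipocytes. For these 2 genes the monolayer and bilayer macrophage arrays overlapped. The ratio of highest to lowest mean, of intensities without the added 16, was 12.2 for Atf3 but 1.45 for Atf4. For Atf3 it compares the same groups as the 9.85-fold above. For Asns and Atf5 the adipocyte groups overlapped each other and both lay above the macrophage groups. Ppp1r15a was highest in bilayer adipocytes, and its next 2 groups, bilayer macrophages and monolayer adipocytes, overlapped. Psat1 had the narrowest range, with a ratio of 1.21.

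Other genes of the pathway were read from lists, also chosen with earlier results of these data known. Their counts stand beside the 10.8% of all genes that passed in adipocytes and the median of -0.01 over all genes tested. Among 15 genes of the eIF2 kinases and eIF2 machinery, 0 rose and 1 fell, with a median of 0.00. The gene that fell was Oma1, a mitochondrial protease (-0.33, adjusted p = 0.0101), and its call was lost without adipocyte monolayer replicate 2 (adjusted p = 0.063). Among 9 ATF4 partners and other bZIP genes 3 rose and 6 did not pass, with a median of 0.49. They were Fosl2 (0.97, adjusted p = 0.00129), Jun (0.58, adjusted p = 0.0112) and Junb (0.51, adjusted p = 0.0477), genes of the AP-1 family. With the mean of its probes Fosl2 no longer passed (adjusted p = 0.0757). The Jun call was lost without monolayer replicate 3 (adjusted p = 0.0582). That of Junb was lost without any 1 of the 3 monolayer arrays, bilayer replicates 1 or 2 or either macrophage bilayer array (adjusted p = 0.051 to 0.218).

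Among 11 genes of serine, proline and asparagine related synthesis, 3 rose, 2 fell and 6 did not pass, with a median of -0.02. The folate enzyme gene Aldh1l2 rose by 0.73 (adjusted p = 0.000729). Aldh18a1, the first enzyme of proline synthesis, rose by 0.68 (adjusted p = 9.94e-05), and the branched-chain aminotransferase gene Bcat1 by 0.41 (adjusted p = 0.0168). Phgdh, which makes the substrate of PSAT1, went from a mean of 1519 to 1159 (-0.39, adjusted p = 0.0241), and the serine hydroxymethyltransferase gene Shmt1 fell by 0.36 (adjusted p = 0.0102). The call of Phgdh was lost without any of the 3 monolayer arrays or bilayer replicates 1 or 3 (adjusted p = 0.0542 to 0.118). That of Shmt1 was lost without monolayer replicate 1 (adjusted p = 0.0528), and that of Bcat1 without monolayer replicate 3 or bilayer replicate 1 (adjusted p = 0.0809 and 0.0596).

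Among 18 aminoacyl tRNA synthetases, which charge tRNAs with amino acids, 3 rose and 15 did not pass, with a median of 0.14. Sars (0.29, adjusted p = 0.0184), Wars (0.26, adjusted p = 0.044) and Iars (0.25, adjusted p = 0.0231) rose by small amounts. The Iars call was lost without monolayer replicates 1 or 3 or bilayer replicates 1 or 2 (adjusted p = 0.0595 to 0.0797). The Sars call was lost without monolayer replicates 1 or 2 or bilayer replicates 2 or 3 (adjusted p = 0.0517 to 0.0806). The Wars call was lost without any of the monolayer arrays, bilayer replicates 1 or 2 or either macrophage bilayer array (adjusted p = 0.0542 to 0.149). Among 8 ATF4-linked amino acid transporters 1 rose and 1 fell, with a median of 0.23. Slc1a4, a transporter of alanine, serine and cysteine, rose by 0.78 (adjusted p = 3.24e-05). Slc7a6 fell by 0.38 (adjusted p = 0.0433), a call lost without any 1 adipocyte array but bilayer replicate 3, or either macrophage monolayer array (adjusted p = 0.052 to 0.139).

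Of 18 other stress response targets 8 rose, 0 fell and 10 did not pass, with a median of 0.29. Haem oxygenase, encoded by Hmox1 and also induced by NRF2, rose by 1.79 (adjusted p = 1.26e-10). Ddit4, an mTORC1 inhibitor also induced by hypoxia, rose by 1.03 (adjusted p = 0.000224), and the corneodesmosin gene Cdsn by 0.72 (adjusted p = 0.000139). The other 5, named after their values were seen, were Nupr1 (0.58), Lonp1 (0.56), Vegfa (0.56), Vldlr (0.38) and Sqstm1 (0.34).

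Among genes of endoplasmic reticulum stress more fell than rose, though most did not pass. Of 16 ATF6 and XBP1 endoplasmic reticulum genes 1 rose, 5 fell and 10 did not pass, with a median of -0.17. The 10 included the chaperone genes Hspa5 (-0.14, adjusted p = 0.519) and Hsp90b1 (0.04, adjusted p = 0.787), named after their values were seen. Sdf2l1 fell by 0.61 (adjusted p = 4.77e-05), the co-chaperone gene Dnajc3 by 0.54 (adjusted p = 0.00987) and the disulfide isomerase gene Pdia3 by 0.47 (adjusted p = 0.000184). The Dnajc3 call was lost without bilayer replicate 2 (adjusted p = 0.0546). Ern1, which encodes the stress sensor IRE1, rose by 0.88 (adjusted p = 0.000569), but by 0.33 with the mean of its probes (adjusted p = 0.333). Of 10 p53 target genes 1 rose and 1 fell, with a median of 0.09. Gadd45a, a growth arrest gene, rose by 0.83 (adjusted p = 1.24e-05), and Sesn1 fell by 0.34 (adjusted p = 0.0107), a call lost without monolayer replicate 1 or bilayer replicate 2 (adjusted p = 0.0543 and 0.0567). With the mean of a gene's probes the calls of Sesn1 (adjusted p = 0.417), Iars, Wars and Shmt1 were also lost. Among 10 sestrin, tribbles and CHAC relatives Sesn1 was the 1 that fell, and 0 rose, with a median of 0.09. Alternatives were run for 24 genes outside the 10, those with the largest differences per list and direction, up to 3, that passed in adipocytes. Of these 24 genes 8 kept their call under every alternative run. They were Aldh18a1, Slc1a4, Cdsn, Hmox1, Pdia3, Sdf2l1, Gadd45a and the marker Acta2. Nupr1, Lonp1, Vegfa, Vldlr and Sqstm1 were not among the 24, and their calls were not run under the alternatives. With no filter on dim probes 12 of the 24 were lost, among them Ddit4 (adjusted p = 0.0507), and Aldh1l2 was lost with a pseudocount of 1 (adjusted p = 0.109).

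**Figure D5:**
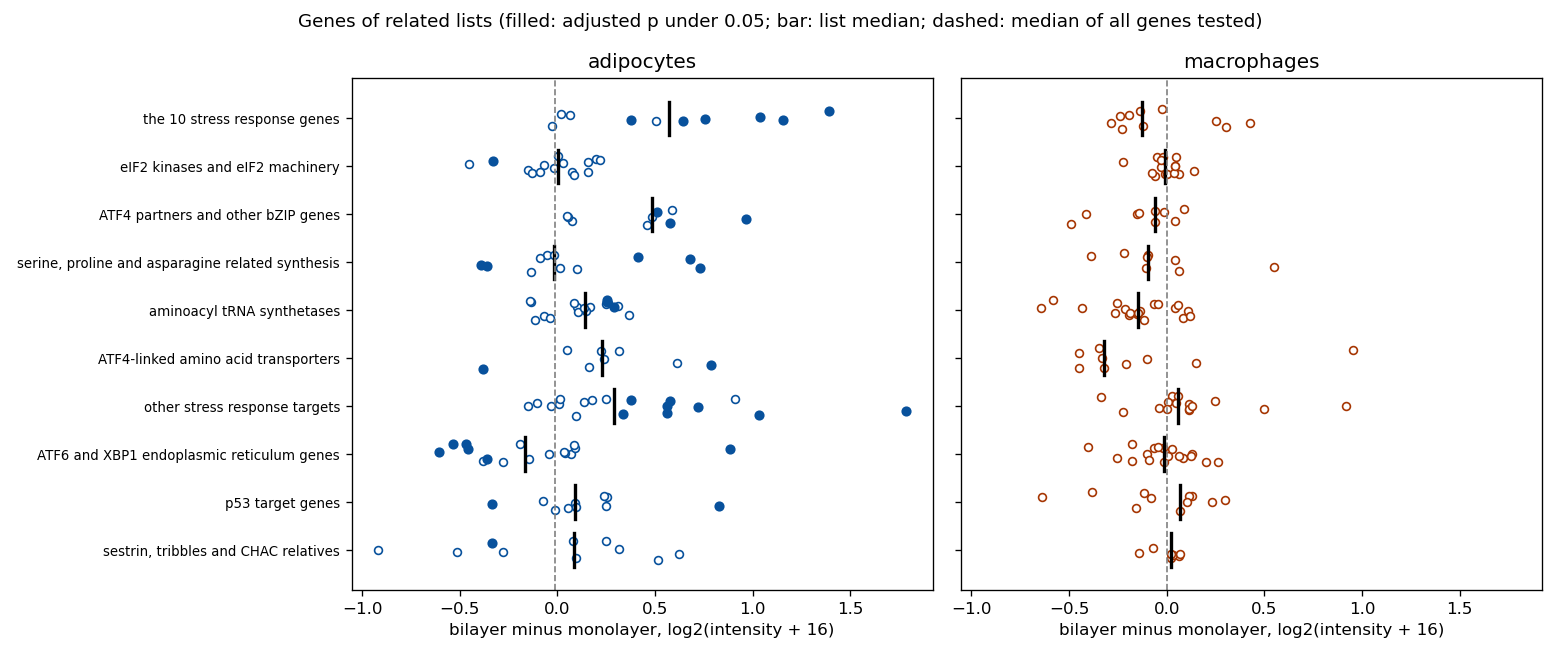
Bilayer minus monolayer difference in log2(intensity + 16) of each gene tested, by list, in adipocytes (left) and macrophages (right). Filled points passed at adjusted p under 0.05, bars are list medians and the dashed line is the median of all genes tested. In adipocytes the 10 stress response genes have a median of 0.57 and the ATF6 and XBP1 endoplasmic reticulum genes one of -0.17, and no point is filled in macrophages.

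In macrophages 0 genes of these 9 lists passed by limma. At an unadjusted p under 0.05, which 10.9% of all genes tested reached, there were 5 of 9 amino acid transporters, with a list median of -0.32, 3 of 15 other stress response targets (median 0.06) and 2 of 8 synthesis genes (median -0.10). The bZIP, tRNA synthetase, ATF6 and XBP1 and p53 lists had 1 each, of 9, 19, 18 and 11 genes, with medians of -0.06, -0.15, -0.01 and 0.07. The eIF2 list (median -0.01) and the sestrin, tribbles and CHAC relatives (median 0.02) had 0, of 15 and 7 genes.

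The counts between the lines grown alone stand beside 33.0% of all genes higher and 32.8% lower in adipocytes, and several lists lie near those shares. Of the lists, 13 of 19 tRNA synthetases and 5 of 9 bZIP genes were lower in adipocytes, and 2 and 1 were higher. Of 19 other stress response targets 14 were higher in adipocytes and 1 lower. The eIF2 list had 5 of 15 higher and 7 lower, the synthesis list 6 of 11 higher and 4 lower, and the transporters 4 of 9 higher and 4 lower. The ATF6 and XBP1 genes had 7 of 18 higher and 10 lower, the p53 targets 7 of 11 higher and 3 lower, and the sestrin, tribbles and CHAC relatives 7 of 10 higher and 1 lower.

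The genes whose pattern was most like that of Trib3 were found by Pearson's r of log2 values over the 10 arrays, each gene centred on the mean of its cell line, among 9363 genes. As all points share arrays and conditions, r is given as a description. Outside the 10 genes the highest were the glycolytic gene Pfkl (r = 0.996), the pyruvate dehydrogenase kinase gene Pdk1 (0.986) and the unnamed gene model Gm8615 (0.985). The pyruvate kinase gene Pkm (0.983) and the syndecan gene Sdc3 (0.983) followed. Among the 10 genes, by rank over all 9363, Ppp1r15a (0.973) was at 12, Ddit3 (0.946) at 50 and Atf4 (0.900) at 147. Chac1 (0.860) was at 251, Atf3 (0.831) at 332 and Sesn2 (0.623) at 1094. Atf5 (0.105), Psat1 (0.0227) and Asns (-0.353) were lower still. Centring by line leaves the adipocyte bilayer rise in r. High values for genes that rose therefore restate that rise in part.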

How the data were processed

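RNA from 10 samples was measured on Illumina arrays. The deposited values are intensities, 1 linear value per probe and array, already background-subtracted and normalized by the authors, and the method is not given in the sources used here. Over the 10 arrays of both lines the median ran from 5.08 to 5.10 and the upper quartile from 83.9 to 84.2. Differences, also those between the lines, are therefore relative to arrays with nearly the same distribution of values. Per the submitters' processing notes, GenomeStudio 2011.1 was among the tools. A further 20 value columns of 2 slides carry no sample name and were not used, so slide entered no test.

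From the deposited intensities, values below 0 were set to 0 and log2(intensity + 16) was taken. The noise bound, 10.9 units, was the 99th percentile of the sizes of values below 0. Probes with 1 gene symbol in the platform annotation (34885) were used. A gene was tested where at least 2 arrays of the lines compared had a probe above the bound, and was represented by its brightest such probe. Linear models with 4 groups were fitted to all 10 arrays with limma 3.58.1 (R 4.3.3, eBayes with an intensity trend, two-sided), so the spread is pooled over groups. The script was tested on simulated data.

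Named genes are all members, up to 3 genes per list and direction that passed in each bilayer comparison, and the 5 most like Trib3. Members and lists were chosen with earlier results of these data known. Alternatives changed the pseudocount, filter, variance trend, centring, probe summary, block and arrays.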

Additional observations from a re-analysis of the deposited data

Results flagged for a closer look

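Each result here was singled out because the test of the difference between the responses of the 2 lines passed, that is, the bilayer difference of adipocytes minus that of macrophages. Among the 10 stress response genes these were Ppp1r15a (1.08 in log2), Chac1 (0.87), Ddit3 (0.79), Trib3 (0.73) and Atf4 (0.40). Among genes of the other lists, Hmox1 differed by 2.12 (adjusted p = 1.82e-06), with 1.79 in adipocytes and -0.33 in macrophages. Slc1a4 differed by 1.11 (0.78 and -0.32, adjusted p = 0.00154), Ern1 by 0.90 (adjusted p = 0.0471) and Aldh18a1 by 0.78 (adjusted p = 0.0134). Cdsn differed by 0.71 (adjusted p = 0.0377) and Iars by 0.52 (adjusted p = 0.016). For genes outside the 10 this difference was not run under the alternatives, and some calls lie close to the threshold. Pdia3 and Sdf2l1 differed by -0.67 each, with -0.47 and -0.61 in adipocytes. Adipoq differed by 0.65 (adjusted p = 0.0495). It is the adiponectin gene, whose macrophage means of 15.5 and 3.01 lie near the noise bound, with 0 of 2 bilayer arrays above it. Its macrophage difference of -0.73 passed, but Adipoq entered that test through its monolayer arrays alone, so this pass is no separate support for a fall. Without either macrophage monolayer array it was too dim to be tested. The size of the difference is set by the pseudocount and ran from -2.29 with a pseudocount of 1 to -0.25 with 64. The call was lost under both of these, with no filter on dim probes, with no variance trend, with only the macrophage arrays and without either macrophage bilayer array (adjusted p = 0.0505 to 0.511 over these). No group held enough arrays for a test of single outlying arrays.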

How the results depend on the processing

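The 6 rises in adipocytes kept their direction under every alternative run, and all passed under each but 1, the absence of a filter on dim probes, where Atf3 did not. Between 5 and 7 of the 10 genes rose in adipocytes over all alternatives. In macrophages 1 of the 10 passed, Trib3, when only that line's arrays were fitted, and 155 genes passed in all. The number of all genes that passed in adipocytes, 1192, was 603 with no filter and 604 with no variance trend, and 692 to 1153 with 1 array left out. In macrophages 69 became 9 to 70 with 1 array left out. The count for the difference of responses, 316, was 106 with no filter, 80 with no trend and 97 to 318 with 1 array left out. Of the 10 stress response genes, 5 of which passed there, 1 passed with a pseudocount of 1, 0 with no filter or no trend, 2 with the replicate block and 0 to 6 with 1 array left out, the 6 including Sesn2. The cause was not tested. Differences near 0 changed sign with 1 array left out. In adipocytes these were Psat1 (-0.0385 to 0.10) and Asns (-0.0769 to 0.0155). In macrophages they were Atf4 (-0.0531 to 0.00246) and Atf3 (-0.29 to 0.0164), and between the lines Psat1 (-0.10 to 0.12). With the replicate block Psat1 was at -0.0556 between the lines. That value compares the fitted replicate 1 level of each line and is not the same difference. Samples share only their numbers: same-numbered adipocyte arrays deviated together at r = 0.0165 to 0.0409, each highest with its own number, and macrophage arrays at -0.0148. With the block, 1197, 49 and 236 genes passed in adipocytes, macrophages and the difference. Fits with slide as a block, or from the non-normalized signals, were not run, because those columns could not be tied to samples by name.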
